A study of Mus musculus with 6 samples.

Results

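The genes described here are the protein-coding genes of mouse chromosome 11 that lie around Kdm6b, the gene targeted in 1 of the knockouts of this study. A gene belongs to the set where its midpoint is within 40 Mb of the midpoint of Kdm6b (GRCm38, GENCODE M21), which spans positions 29406091 to 109406091, and Kdm6b itself is left out. Of the 54123 genes with a transcript in the quantification files, 1253 are members (1256 are annotated), and 825 of these passed the filter on low counts among 17084 genes tested. The stretch was chosen from changes between Jmjd3 KO and Tdt Control, so every value of that comparison below is a description, without a test.

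Total RNA was sequenced from satellite cells (muscle stem cells that regenerate fibres) of adult C57BL/6 mice after injection of cardiotoxin, a snake toxin that kills muscle fibres, into the hind limb. The cells came from the tibialis anterior and gastrocnemius by fluorescence-activated sorting, 30 h after the injury. The 6 libraries were 2 of genotype Jmjd3 KO, 2 of genotype Utx KO and 2 of genotype Tdt Control, and all 3 groups had the same strain, injury and time. The series title gives the knockouts as JMJD3scKO and UTXscKO and the third group as wild-type, and what Tdt stands for is not stated. The Cre driver, the targeted exons and the breeding of the lines are not given in the sources used here. Whether the replicates of a group are different mice is not stated in the labels, so p-values measure only the spread between these samples, which may be technical.

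JMJD3, the protein made from Kdm6b, and UTX, made from the X-linked gene Kdm6a, are demethylases that remove methyl groups from lysine 27 of histone H3, a mark laid down by Polycomb complexes and found at silent genes. Genes close together on a chromosome tend to be inherited together with a targeted allele, and they can also share enhancers and chromatin domains. Mouse chromosome 11 carries, around Kdm6b, clusters of sarcomeric myosin heavy chain, Ccl chemokine and Schlafen genes, a keratin and olfactory receptor complement and the Hoxb cluster. Its genes thus serve muscle contraction, leukocyte recruitment, interferon responses and body patterning.

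The sequences just before the transcription start are shown for 6 members with some of the largest changes in Jmjd3 KO and for Xaf1, an interferon-induced gene, so that genes that moved in opposite directions can be read side by side. The genes and the motifs searched were chosen after the values were seen. The sequences come from RefSeq (GRCm38.p6), whose promoter table matched 637 of the 825 tested members and 60 of the 81 members called in Jmjd3 KO. Each run gives the 250 bases before the RefSeq start on the gene's own strand. That start lies 23 bases from the start of the leading GENCODE M21 transcript in Scpep1, 26 in Glod4, 9 in Sgsm2, 1 in Xaf1 and 0 in the other 3. Capitals mark matches on either strand to the TATA box TATAAA, the GC box GGGCGG, the interferon-stimulated response element core GAAANNGAA, the AP-1 site TGANTCA, the cyclic AMP response element TGACGTCA and the CCAAT box, whose name is its letters, and no matches overlapped in these runs. Scpep1, B9d1, Sgsm2 and Xaf1 were higher in Jmjd3 KO, and Arl4d, Slfn9 and Glod4 lower.
Scpep1, chr11:88955443-88955692, minus strand: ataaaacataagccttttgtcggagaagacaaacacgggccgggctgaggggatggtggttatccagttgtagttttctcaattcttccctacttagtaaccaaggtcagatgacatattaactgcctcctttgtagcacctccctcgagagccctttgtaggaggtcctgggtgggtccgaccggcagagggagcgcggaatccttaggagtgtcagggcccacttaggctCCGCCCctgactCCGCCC
B9d1, chr11:61504894-61505143, plus strand: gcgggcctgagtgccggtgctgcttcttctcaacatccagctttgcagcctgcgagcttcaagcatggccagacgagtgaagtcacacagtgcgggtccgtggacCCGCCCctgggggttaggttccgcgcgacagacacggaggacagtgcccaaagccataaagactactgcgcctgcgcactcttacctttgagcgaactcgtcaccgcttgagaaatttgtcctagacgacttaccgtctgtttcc
Sgsm2, chr11:74897070-74897319, minus strand: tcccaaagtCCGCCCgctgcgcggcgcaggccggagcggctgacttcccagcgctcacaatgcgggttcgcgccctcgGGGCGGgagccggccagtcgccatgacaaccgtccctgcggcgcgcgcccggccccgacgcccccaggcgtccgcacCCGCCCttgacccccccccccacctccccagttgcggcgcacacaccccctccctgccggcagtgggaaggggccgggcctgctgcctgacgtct
Xaf1, chr11:72301379-72301628, plus strand: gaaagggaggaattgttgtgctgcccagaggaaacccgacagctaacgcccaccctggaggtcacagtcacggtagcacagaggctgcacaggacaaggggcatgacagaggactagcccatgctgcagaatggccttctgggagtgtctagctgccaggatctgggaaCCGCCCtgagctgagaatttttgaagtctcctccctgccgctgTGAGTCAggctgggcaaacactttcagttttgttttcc
Arl4d, chr11:101665291-101665540, plus strand: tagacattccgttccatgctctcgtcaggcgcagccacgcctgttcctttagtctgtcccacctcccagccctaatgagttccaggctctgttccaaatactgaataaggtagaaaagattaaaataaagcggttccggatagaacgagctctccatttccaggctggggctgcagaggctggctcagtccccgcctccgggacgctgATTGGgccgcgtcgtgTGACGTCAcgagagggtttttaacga
Slfn9, chr11:82991831-82992080, minus strand: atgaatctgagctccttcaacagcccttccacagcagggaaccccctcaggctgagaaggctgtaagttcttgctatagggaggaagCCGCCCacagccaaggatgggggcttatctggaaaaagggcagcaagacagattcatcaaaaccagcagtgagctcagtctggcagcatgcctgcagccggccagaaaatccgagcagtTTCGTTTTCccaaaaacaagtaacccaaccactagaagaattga
Glod4, chr11:76243700-76243949, minus strand: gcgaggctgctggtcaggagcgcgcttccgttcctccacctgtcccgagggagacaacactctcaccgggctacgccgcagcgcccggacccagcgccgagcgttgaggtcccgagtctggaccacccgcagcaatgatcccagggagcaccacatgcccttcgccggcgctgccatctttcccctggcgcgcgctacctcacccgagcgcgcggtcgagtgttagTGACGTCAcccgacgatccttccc

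The GC box letters occurred before the RefSeq start of 5 of these genes, and the cyclic AMP response element letters before that of Arl4d (26 to 19 bases before it) and Glod4 (24 to 17 bases before it). The letters of Glod4 and both GC boxes of Scpep1 lie inside the span that GENCODE M21 gives these genes. The interferon-stimulated response element letters lay 44 to 36 bases before the start of Slfn9. The interferon-stimulated response element letters were not found in the window of Xaf1, which held the AP-1 letters 38 to 32 bases before its start. Over all 32851 promoters of the table, windows of the same length held the GC box in 32.7%, the CCAAT box in 33.8%, the TATA box in 12.4%, the AP-1 letters in 6.75%, the interferon-stimulated response element in 7.13% and the cyclic AMP response element in 1.55%. Among the 802 promoters of tested members the GC box share was 59.2%, the CCAAT box 34.4% and the TATA box 5.36%. The AP-1 share there was 5.99%, the interferon-stimulated response element 7.36% and the cyclic AMP response element 3.12%. Among the 77 promoters of members called in Jmjd3 KO they were, in this order, 64.9%, 40.3%, 7.79%, 6.49%, 10.4% and 6.49% (5 promoters). The 32851 promoters were not limited to tested protein-coding genes, so nothing is read from these differences. These matches are descriptions of letters in a window and not of binding.

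Gene levels are given in CPM, each gene's read count scaled by the normalised library size. Library totals ran from 53750675 to 77675388 estimated reads, and the 8 satellite cell markers summed to between 3460 and 3782 CPM in each of the 6 libraries. All 6 lymphoid markers stayed under 1 CPM. Kdm6b (ENSMUSG00000018476.7, chromosome 11, 69398508 to 69413675, minus strand) stood at 15.9 and 16.5 CPM in the Jmjd3 KO pair, 29.9 and 22.7 in the Tdt Control pair and 23.0 and 22.2 in Utx KO (log2 fold change -0.70 ± 0.12 SE, Jmjd3 KO against Tdt Control). The Jmjd3 KO libraries were below all 4 others, and RNA of the gene was still counted in both. Below, the controls are the Tdt Control libraries, and a pair of values gives replicates 1 and 2 of a group. In bulk samples such as these, fewer cells of a type and less RNA per cell cannot be told apart.

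Of the 825 tested members, 81 (9.82%) were called in Jmjd3 KO against Tdt Control, 52 higher and 29 lower. A gene is called where edgeR's quasi-likelihood test gives it a p under 0.05 after Benjamini-Hochberg adjustment over the 17084 genes. Over all genes tested 3% were called (1.97% higher and 1.03% lower), and over the protein-coding genes of other chromosomes 2.78%. Since the stretch was chosen from this comparison, nothing is read from the difference. The median log2 fold change of the members was 0.02 and that of all genes 0.00. The median size of the change, whatever its sign, was 0.15 among members and 0.13 among all genes. Members are all protein-coding, and this size was 0.11 among protein-coding genes of other chromosomes and 0.10 among those of chromosome 11 beyond 40 Mb. In 78 of the 81 called members both Jmjd3 KO libraries lay beyond all 4 other libraries, as they did in 373 of all 825 tested members (45.2%) and in 31.2% of all genes tested. In the authors' deposited table, 102 of the 762 members with an adjusted p were called (13.4%), against 6.1% of all genes there, and 70 of the 81 were among them.

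Like the share called over all genes, the count of called members fell without any 1 of the Jmjd3 KO and Tdt Control libraries. With Jmjd3 KO replicate 1 left out it was 23 (2.74% of members, 0.633% of all genes), and with Jmjd3 KO replicate 2 left out 29 (3.47% and 0.983%). Leaving out Tdt Control replicate 1 gave 25 (2.98% and 0.864%), and leaving out Tdt Control replicate 2 gave 35 (4.17% and 1.2%). Each of these omissions leaves a group with 1 library, which is then assumed to vary like the others. The 18 members called whichever of the 6 libraries was left out were Sh3pxd2b, Csf2, Atox1, Hist3h2ba, B9d1, Myh4, Xaf1, Ccl2, Ap2b1, Cuedc1, Scpep1 and Acbd4, all higher, and Lyrm7, Glod4, Slfn9, Itga3, Epop and Arl4d, all lower. Of these, Lyrm7 lost the call with transcript length offsets. Calls kept in every omission were not counted over all genes, so nothing is read from the 18.

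Called members were spread over most of the stretch and did not gather at Kdm6b. Within 1 Mb of it 3 of 72 tested members (4.17%) were called, within 5 Mb 16 of 146 (11%) and within 20 Mb 56 of 501 (11.2%). Before Kdm6b, toward the start of the chromosome, 12 of 111 (10.8%) were called at up to 10 Mb and 12 of 102 (11.8%) at 10 to 20 Mb. Farther that way the share was low: 0 of 36 at 20 to 30 Mb and 1 of 36 (2.78%), the adaptor gene Sh3pxd2b, at 30 to 40 Mb. After Kdm6b the shares were 9.24% (17 of 184) at up to 10 Mb, 14.4% (15 of 104) at 10 to 20 Mb, 10.9% (12 of 110) at 20 to 30 Mb and 8.45% (12 of 142) at 30 to 40 Mb. On the rest of chromosome 11, beyond 40 Mb on either side, 12 of 309 protein-coding genes (3.88%) were called. Among the 19 other chromosomes compared the share ran from 1.17% to 4.8%, the highest on chromosome 6. Chromosomes or scaffolds with few protein-coding genes tested were left out of this range.

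**Figure D1:**
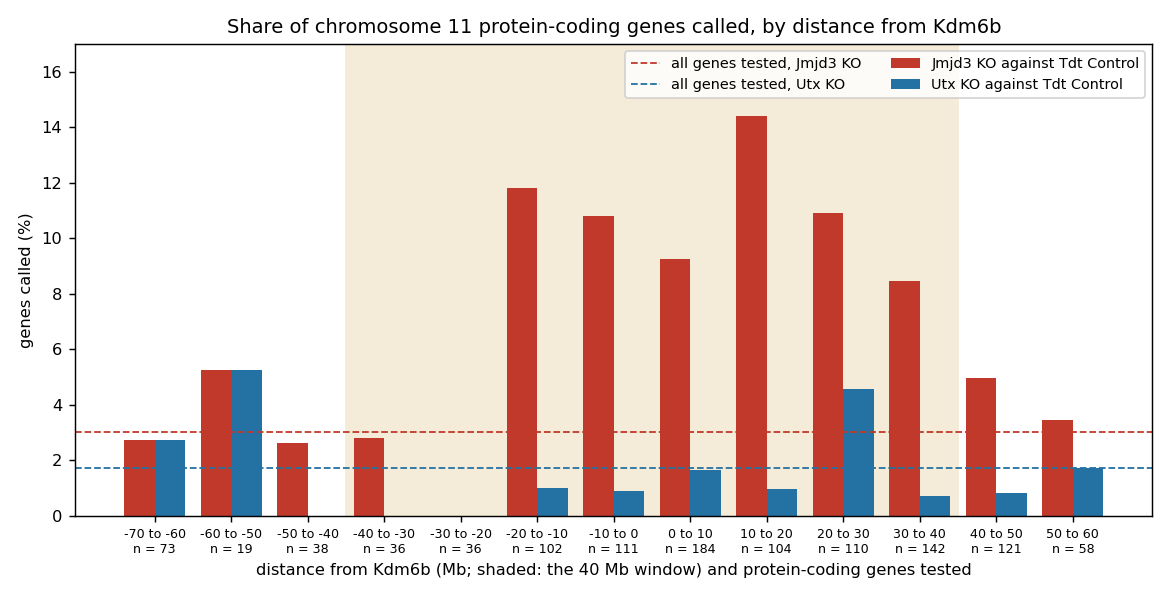
Percent of tested protein-coding genes of chromosome 11 called in each knockout against Tdt Control (vertical axis), in 10 Mb stretches of distance from Kdm6b (horizontal axis, with the number tested). Dashed lines mark 3% (Jmjd3 KO) and 1.72% (Utx KO) of all genes tested; in Jmjd3 KO the 6 stretches from 20 Mb before to 40 Mb after Kdm6b stand between 8.45% and 14.4%, and the Utx KO bars between 0.704% and 4.55% there.

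At the edges of the window the members nearest to the limit were Ccdc88a (39.96 Mb before Kdm6b, log2 fold change 0.14 ± 0.07 SE) and Gna13 (39.98 Mb after it, 0.10 ± 0.07). The nearest genes outside it were Cfap36 (0.05 ± 0.06) and Amz2 (0.02 ± 0.06). Members on the plus strand were called in 36 of 419 cases (8.59%) and those on the minus strand in 45 of 406 (11.1%). The 428 members that were not tested included 186 without a read in any library, 81 of the 82 olfactory receptor genes, 25 of the 27 keratin genes and all 23 keratin-associated genes. Of the members called, 16 averaged under 5 CPM over the 6 libraries and 17 differed by at least 2-fold.

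**Figure D2:**
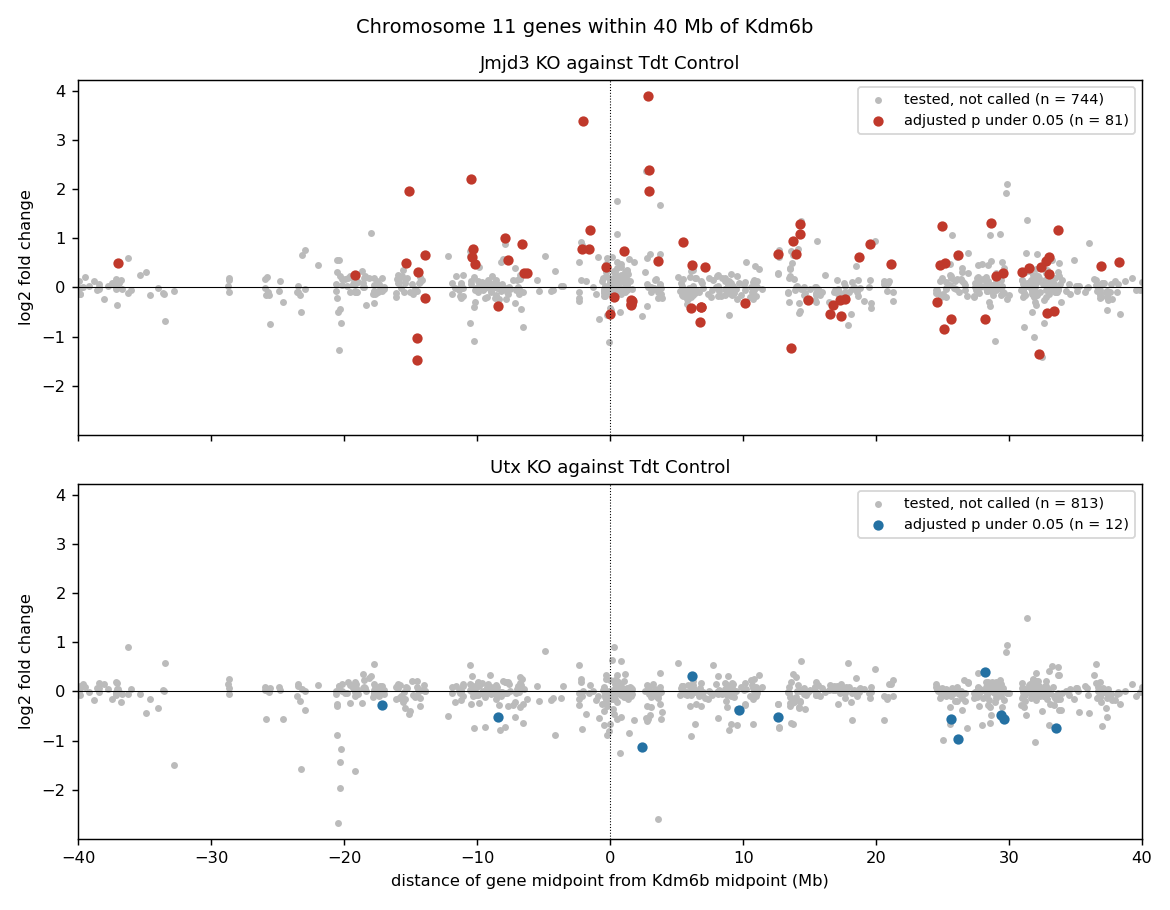
Log2 fold change of the 825 tested members (vertical axis) by distance from Kdm6b in Mb (horizontal axis, 0 is Kdm6b), for Jmjd3 KO (upper panel) and Utx KO (lower panel) against Tdt Control. Filled colour marks the 81 and the 12 members called; in Jmjd3 KO they lie on both sides of 0 and of Kdm6b, with 1 before -20 Mb.

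Of the 6 tested members nearest to Kdm6b on each side, Kcnab3, Rnf227, Chd3, Cyb5d1, Naa38 and Tmem88 before it and Dnah2, Efnb3, Wrap53, Trp53, Atp1b2 and Sat2 after it, 1 was called in Jmjd3 KO. That gene was Chd3 (0.05 Mb before Kdm6b), a helicase subunit of the NuRD chromatin remodelling complex, at 7.04 and 7.57 CPM in the Jmjd3 KO pair, 10.3 and 11.1 in the controls and 11.3 and 9.77 in Utx KO (log2 fold change -0.55 ± 0.10). Both Jmjd3 KO libraries were below the 4 others. Trp53, which encodes p53 and lies 0.18 Mb after Kdm6b, stood at 238 and 228, 239 and 232 and 230.2 and 237 CPM in the Jmjd3 KO, control and Utx KO pairs, and the 3 groups overlapped. Wrap53, beside it, an RNA-binding protein gene needed for telomerase assembly, had 18.0 and 18.7, 20.7 and 20.1 and 19.5 and 19.0 CPM (-0.15 ± 0.06). Naa38 and Cyb5d1, which overlap each other on opposite strands, had log2 fold changes of 0.11 and 0.10. Kcnab3, Dnah2 and Efnb3 were at most at 0.242 CPM in every library. Chd3 lost the call without any 1 of the Jmjd3 KO and Tdt Control libraries (-0.60 to -0.49).

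Among called members that averaged at least 5 CPM, the largest increase was that of Acbd4 (ENSMUSG00000056938.16, chromosome 11, 103101682 to 103112200, plus strand), an acyl-CoA-binding protein gene of the peroxisome, 33.7 Mb after Kdm6b. It stood at 10.53 and 9.77 CPM in the Jmjd3 KO pair, 4.36 and 4.68 in the controls and 5.43 and 6.02 in Utx KO, a log2 fold change of 1.17 ± 0.10 (2.25-fold). B9d1 (ENSMUSG00000001039.12, chromosome 11, 61505144 to 61512931, plus strand), a component of the transition zone at the base of the cilium, had 11.9 and 10.8 CPM against 5.50 and 5.84 in the controls and 6.62 and 6.32 in Utx KO (1.00 ± 0.09). The largest increases and decreases were named only where the Jmjd3 KO and control libraries did not overlap, so that separation was set by the rule. In both genes the Jmjd3 KO libraries were also above those of Utx KO. Sgsm2 (ENSMUSG00000038351.14, chromosome 11, 74849261 to 74897060, minus strand), which regulates Rab GTPases of membrane traffic, stood at 8.82 and 7.99, 4.71 and 4.13 and 4.80 and 4.76 CPM in the Jmjd3 KO, control and Utx KO pairs (0.93 ± 0.11). Scpep1 (ENSMUSG00000000278.10, chromosome 11, 88924020 to 88955465, minus strand), a serine carboxypeptidase gene, was at 52.5 and 50.6, 27.6 and 28.6 and 26.8 and 24.7 CPM (0.88 ± 0.06). Again both Jmjd3 KO libraries exceeded every other library. An antisense gene, Scpep1os, overlaps Scpep1, and the sources used here do not say whether counting used strand, so their reads cannot be told apart.

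Ap2b1, a subunit of the clathrin adaptor AP-2, was at 170.0 and 167 CPM in the Jmjd3 KO pair, 110.1 and 99.7 in the controls and 94.5 and 99.2 in Utx KO (0.68 ± 0.06). Part of its span is also annotated on the other strand, and reads from both strands there cannot be told apart. Atox1, a copper chaperone gene, stood at 27.6 and 24.8, 16.8 and 16.4 and 16.7 and 16.8 CPM in the same order (0.66 ± 0.07), and Cuedc1, a gene with a ubiquitin-binding domain, at 23.9 and 23.96, 15.6 and 15.5 and 15.0 and 15.7 CPM (0.62 ± 0.06). By the naming rule no Jmjd3 KO library of these 3 genes could overlap the controls, and none overlapped Utx KO. Dhrs7c, a dehydrogenase gene of the sarcoplasmic reticulum, was also among the largest increases and stood at 8.23 and 7.68, 4.40 and 4.92 and 4.48 and 4.61 CPM (0.77 ± 0.10). Myh4 and Ccl2 are described with their clusters, and Fam171a2, which overlaps Grn, had a log2 fold change of 0.61 ± 0.10. Sgsm2 lost the call without Jmjd3 KO replicate 1 (0.84 to 1.02), and Dhrs7c without Jmjd3 KO replicate 1 or Tdt Control replicate 1 (0.69 to 0.86) and with transcript length offsets. Fam171a2 lost it without any 1 of the Jmjd3 KO and Tdt Control libraries (0.56 to 0.67).

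Among called members that averaged at least 5 CPM, the largest decrease was that of Arl4d (ENSMUSG00000034936.2, chromosome 11, 101665541 to 101667832, plus strand), a gene for an ARF-like small GTPase, 32.3 Mb after Kdm6b. Arl4d had 10.1 and 10.6 CPM in the Jmjd3 KO pair, 24.5 and 28.6 in the controls and 27.9 and 26.8 in Utx KO, a log2 fold change of -1.36 ± 0.08, or 2.56-fold lower. Slfn9 (ENSMUSG00000069793.12, chromosome 11, 82978390 to 82991830, minus strand), a Schlafen gene, was at 45.4 and 45.1 CPM in the Jmjd3 KO pair, 99.2 and 114 in the controls and 126 and 117 in Utx KO (-1.24 ± 0.08). The controls lie apart from the Jmjd3 KO pair by the naming rule, and in both genes the Utx KO libraries were well above that pair too. Gpx3 (ENSMUSG00000018339.11, chromosome 11, 54902453 to 54910377, plus strand), a secreted glutathione peroxidase gene, 14.5 Mb before Kdm6b, had 184 and 168 CPM against 309.7 and 411 and 443 and 393 (-1.04 ± 0.13). The 2 control libraries of Gpx3 differed more from each other than the Jmjd3 KO pair did, yet neither came near it. Glod4 (ENSMUSG00000017286.15, chromosome 11, 76120987 to 76243725, minus strand), a glyoxalase domain gene, stood at 25.4 and 27.3, 42.6 and 43.4 and 45.8 and 44.7 CPM in the Jmjd3 KO, control and Utx KO pairs (-0.71 ± 0.05). It overlaps Vps53 and Gemin4 on its own strand and Mrm3 on the other, and estimated reads of overlapping genes may be split between them.

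Among other decreases, Rsad1, a radical SAM domain gene, was at 3.78 and 4.37 CPM in the Jmjd3 KO pair, 7.49 and 7.14 in the controls and 7.25 and 7.09 in Utx KO (-0.84 ± 0.10). Itga3, the alpha3 integrin gene, had 69.4 and 73.8 CPM in the Jmjd3 KO pair, 114 and 110.3 in the controls and 77.1 and 73.9 in Utx KO (-0.64 ± 0.06). Here both knockouts lay below the controls and close to each other, with the Jmjd3 KO pair just the lower. Dhx40, an RNA helicase gene, stood at 32.4 and 31.3, 44.5 and 50.2 and 55.8 and 49.1 CPM in the Jmjd3 KO, control and Utx KO pairs (-0.57 ± 0.08). Tbx4, a T-box transcription factor gene that marks the hind limb, had 8.24 and 7.59, 11.9 and 10.98 and 12.3 and 12.9 CPM (-0.53 ± 0.08). Gjc1, which encodes the gap junction protein connexin 45, was at 18.0 and 20.5, 26.6 and 26.9 and 25.6 and 24.6 CPM (-0.47 ± 0.07), and BC030867 had a log2 fold change of -0.52 ± 0.09. In these genes the Jmjd3 KO pair was below the controls, as the naming rule required, and below Utx KO too. Calls of the decreases depended on single libraries as follows. Gpx3 lost it without either Jmjd3 KO library (-1.23 to -0.81), Rsad1 without Jmjd3 KO replicate 1 or Tdt Control replicate 1 (-0.95 to -0.75), and Dhx40 without either Jmjd3 KO library or Tdt Control replicate 2 (-0.66 to -0.48). Tbx4 and BC030867 lost it without either Jmjd3 KO library or Tdt Control replicate 1 (-0.60 to -0.47 and -0.62 to -0.41), and Gjc1 without Jmjd3 KO replicate 1 or either Tdt Control library (-0.57 to -0.38).

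**Figure D3:**
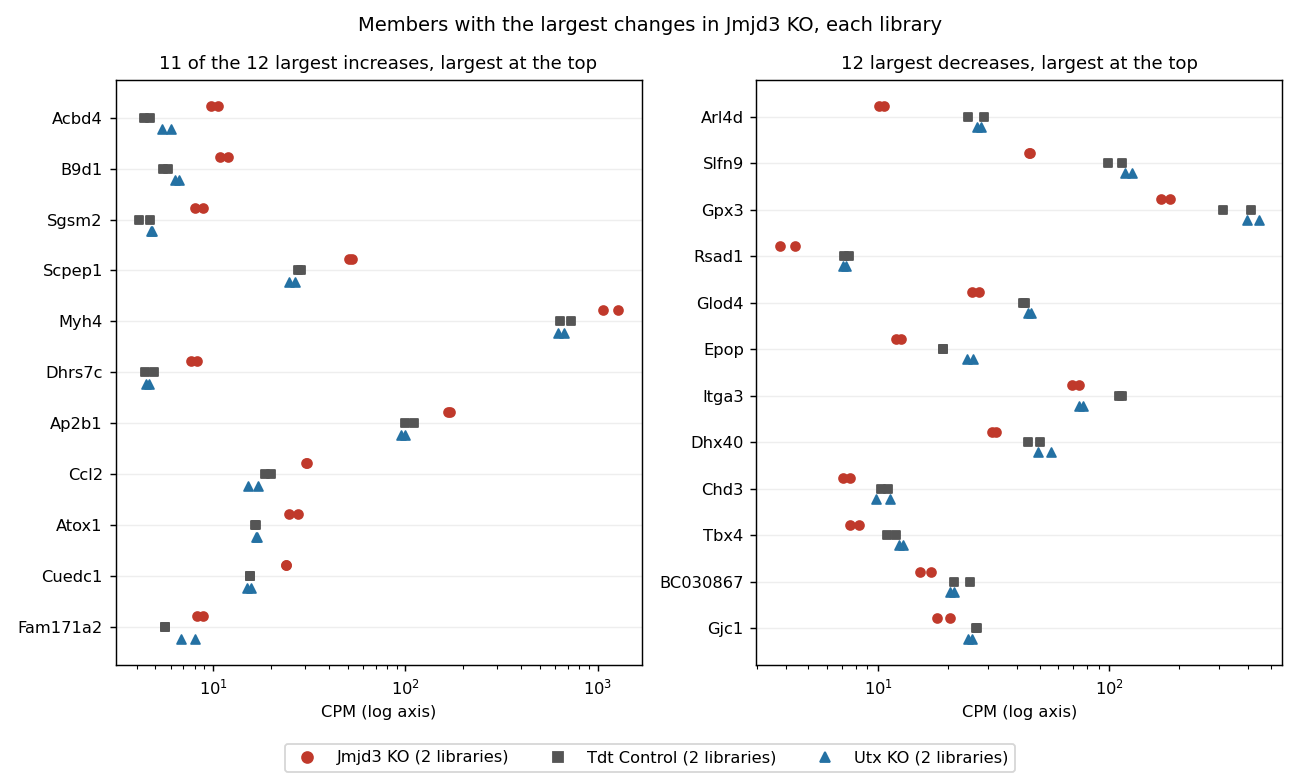
CPM on a log axis in each of the 6 libraries for 11 of the 12 members with the largest increases (left) and the 12 with the largest decreases (right) in Jmjd3 KO among called members averaging at least 5 CPM; each point is 1 library. In Acbd4 the Jmjd3 KO points are at 10.5 and 9.77 CPM against 4.36 and 4.68 in the controls, and in Arl4d at 10.1 and 10.6 against 24.5 and 28.6, while the Utx KO points mostly lie beside the controls.

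Several members that averaged below 5 CPM differed by larger folds and were named after their values were seen. Xaf1 (ENSMUSG00000040483.15, chromosome 11, 72301629 to 72313733, plus strand), which encodes an interferon-induced factor that promotes apoptosis, stood at 7.75 and 7.36 CPM in the Jmjd3 KO pair, 1.53 and 1.34 in the controls and 1.38 and 1.67 in Utx KO, a log2 fold change of 2.40 ± 0.14 (5.26-fold). Its neighbour Slc13a5, a citrate transporter gene, had 1.42 and 1.36 CPM in the Jmjd3 KO pair and 0.0921 and 0.0911 in the controls, and the next gene, Tekt1, a tektin of ciliary microtubules, had 0.746 and 0.635 and 0.184 and 0.167. All 3 genes lie within 120.5 kb and were higher in both Jmjd3 KO libraries than in any other. Csf2 (ENSMUSG00000018916.5, chromosome 11, 54247271 to 54249667, minus strand), the gene for the cytokine GM-CSF, was at 5.93 and 5.42 CPM in the Jmjd3 KO pair, 1.71 and 1.17 in the controls and 0.986 and 1.105 in Utx KO (1.97 ± 0.19). Hist3h2ba, a histone H2B gene, had 3.18 and 3.61, 0.803 and 0.653 and 0.670 and 0.918 CPM (2.21 ± 0.22), and Lyrm7, an assembly factor gene for respiratory complex III, had 1.40 and 1.07, 3.38 and 3.52 and 3.29 and 3.25 CPM (-1.48 ± 0.17). In the authors' deposited table Lyrm7 was not called, with a log2 fold change of -0.06 and an adjusted p of 0.107. Some low-count members had deposited values near 0, such as Kcnab3 (-0.01 there, -1.115 here), and others did not, such as Csf2 (1.92 there). The deposited values and those given here may therefore not be on the same scale. In none of the genes of this paragraph did a Jmjd3 KO library overlap the rest. Without Tdt Control replicate 1 Slc13a5 lost its call (3.86 to 3.92), and Tekt1 did so without any 1 of the Jmjd3 KO and Tdt Control libraries (1.84 to 2.07).

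Some called members were neighbours. With genes joined where the gap between called genes was at most 100 kb, 37 of the 81 fell into 15 runs of 2 to 4 genes. The same count was not made for other stretches of the genome, so nothing is read from it. In 7 runs every gene was higher, in 3 every gene was lower and in 5 the directions were mixed. The run of Nup88, C1qbp, Dhx33 and Mis12, 1.55 to 1.62 Mb after Kdm6b, was lower throughout, with log2 fold changes from -0.36 to -0.26. Nup88, a nucleoporin gene, stood at 94.4 and 95.9 CPM in the Jmjd3 KO pair, 122 and 117 in the controls and 118 and 124 in Utx KO. C1qbp, a mitochondrial protein gene, had 257 and 251, 303 and 307 and 311 and 309 CPM, again with the Jmjd3 KO pair lowest. Glod4, Gemin4 and Mrm3 formed a second lower run, though they overlap one another. Gemin4 lost its call without any 1 of the Jmjd3 KO and control libraries (-0.41 to -0.36) and with transcript length offsets. Mrm3 lost its call without any 1 of the 6 libraries (-0.47 to -0.32). Mixed runs paired Rsad1 (lower) with Acsf2 (higher, 0.50) and BC030867 (lower) with Hdac5 (higher). Nup88, C1qbp and Mis12 lost their calls without any 1 of the Jmjd3 KO and control libraries (Nup88 -0.35 to -0.30, C1qbp -0.28 to -0.24), Dhx33 without any 1 library other than Tdt Control replicate 2, and Acsf2 without any 1 of the 6 (0.44 to 0.56).

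The sarcomeric myosin heavy chain genes of this stretch lie in 1 cluster 2.16 Mb before Kdm6b (Myh4) and encode motor proteins of muscle. Of the 6 members, all tested, 2 were called higher in Jmjd3 KO and 0 lower, with a list median of 0.82, beside 3% of all genes called and a median of 0.00. Myh4, the fast type IIb myosin, was at 1067 and 1269.5 CPM in the Jmjd3 KO pair, 727 and 639.8 in the controls and 669 and 618 in Utx KO (0.77 ± 0.09), with the Jmjd3 KO pair above the rest. Myh2, the type IIa myosin, had 78.1 and 80.5, 25.8 and 58.4 and 32.9 and 63.2 CPM (0.92 ± 0.38), with 1 library of each other group much lower than its partner, and was not called. Myh13, an extraocular myosin, had 0.305 and 0.465 CPM in the Jmjd3 KO pair and 0.0395 and 0.0304 in the controls (3.38 ± 0.56), and Myh8, the perinatal myosin, 0.640 and 0.465 and 0.355 and 0.243 (0.87 ± 0.38, not called). Myh1 stood at 245 and 283, 196 and 280.2 and 279.7 and 285 CPM (0.15 ± 0.15), and the 3 groups overlapped. The genes are close copies of each other, so a split of reads among them is uncertain. No set of muscle fibre markers was counted, and the part of fibre RNA in these genes and in Dhrs7c was not tested. Myh13 lost its call without any 1 of the Jmjd3 KO and Tdt Control libraries (3.05 to 3.65).

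The chemokine genes, 12.63 to 14.26 Mb after Kdm6b, encode secreted proteins that attract leukocytes. Of 11 members 10 were tested, and 3 were called higher in Jmjd3 KO and 0 lower, with a list median of 0.65, beside 1.97% of all genes called higher and 1.03% lower. Ccl2 (ENSMUSG00000035385.5, chromosome 11, 82035571 to 82037453, plus strand), a monocyte attractant, was at 30.5 and 30.9 CPM in the Jmjd3 KO pair, 18.6 and 19.9 in the controls and 15.1 and 16.999 in Utx KO (0.67 ± 0.07). Ccl3 and its neighbour Ccl4, macrophage inflammatory protein genes, had 6.96 and 5.40 and 5.88 and 4.88 CPM in the Jmjd3 KO pair against 2.46 and 2.57 and 2.55 and 2.54 in the controls and 1.84 and 2.499 and 1.97 and 2.499 in Utx KO (1.30 ± 0.18 and 1.08 ± 0.16). In these genes neither control nor Utx KO reached a Jmjd3 KO library. Ccl6, between Ccl2 and Ccl3 on the chromosome, had lower values without a call (21.98 and 24.1 CPM in the Jmjd3 KO pair, 27.6 and 38.7 in the controls and 24.1 and 28.1 in Utx KO; -0.52 ± 0.15), and its Jmjd3 KO and Utx KO libraries overlapped. The calls of Ccl3 and Ccl4 ended when Jmjd3 KO replicate 1 or either control library was left out (1.103 to 1.47 and 0.94 to 1.21).

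Markers of leukocytes also differed between these libraries. The 10 neutrophil markers, 9 of them tested, summed to 246.1 and 184.8 CPM in the Jmjd3 KO pair, 120.2 and 138.1 in the controls and 160.3 and 191.2 in Utx KO, and 3 were called higher in Jmjd3 KO. The 10 macrophage and monocyte markers, all tested, summed to 339.8 and 298.4, 219.1 and 257.5, and 195.8 and 230.7 CPM in the same groups, with 2 called higher. Over all genes tested 1.97% were called higher in Jmjd3 KO. Camp was the 1 neutrophil marker under 1 CPM in all libraries, and no macrophage marker was. Both sums were thus higher in Jmjd3 KO than in Tdt Control, while the Utx KO sums stood above Tdt Control for neutrophils and overlapped it for macrophages. Taken singly, 2 of the 10 macrophage and monocyte markers had positive log2 fold changes in Utx KO (median -0.43). Of these 10 markers 1 was called lower there, beside 0.925% of all genes. Of the 9 tested neutrophil markers 8 were positive in Utx KO (median 0.31), and none was called. The part of leukocyte RNA in Ccl2, Ccl3, Ccl4, Csf2 and Xaf1 was not tested.

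**Figure D4:**
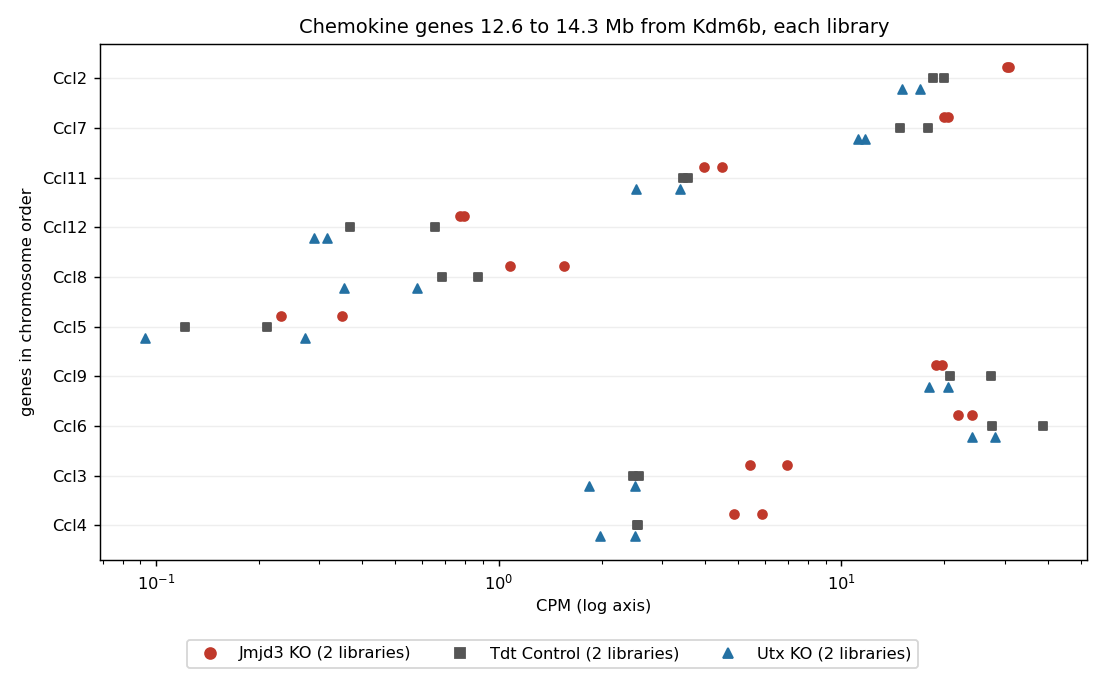
CPM on a log axis for the 10 tested chemokine genes in chromosome order, each point 1 library. The Jmjd3 KO points of Ccl2, Ccl3 and Ccl4 lie to the right of all others (Ccl3 at 6.96 and 5.40 CPM against 1.84 to 2.57), while those of Ccl6 lie at 21.98 and 24.1 CPM, below both Tdt Control points.

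The Schlafen genes are interferon-inducible genes of lymphoid and myeloid cells. Of 8 members 7 were tested. In Jmjd3 KO Slfn9 was called lower and Slfn1 higher, beside 1.03% of all genes called lower and 1.97% higher. The list median was 0.50. Slfn1 stood at 2.48 and 1.98 CPM in the Jmjd3 KO pair, 1.09 and 1.23 in the controls and 1.51 and 1.48 in Utx KO (0.94 ± 0.19), Slfn2 at 27.3 and 20.5, 16.9 and 16.8 and 14.6 and 14.1 (0.50 ± 0.12, not called) and Slfn5 at 8.87 and 10.3, 7.96 and 6.60 and 6.21 and 5.63 (0.39 ± 0.12, not called). The sign of Slfn9 was thus opposite to that of these 3 neighbours. These genes are also near copies of each other, and their reads may be split. Slfn1 lost its call without any 1 of the 6 libraries (0.77 to 1.099). Of the 14 interferon-induced members, which include 3 Schlafen genes, 1 was called higher (Xaf1) and 1 lower (Slfn9), with a median of 0.23. The shares of all genes are those given above. Dhx58, an RNA sensor gene, had 0.71 ± 0.21 and Ifi35 0.38 ± 0.09, both without a call.

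In the other gene lists 0 to 3 members were called. Among 14 chromatin and Polycomb genes 1 was higher and 2 lower in Jmjd3 KO, with a median of 0.02, beside 3% of all genes and 9.82% of tested members called. Epop, which encodes a protein bound to the Polycomb complex PRC2, stood at 12.5 and 12.001 CPM in the Jmjd3 KO pair, 19.2 and 19.1 in the controls and 25.9 and 24.3 in Utx KO (-0.64 ± 0.06). The 3 groups were all apart, with Utx KO highest. Hdac5, a class IIa histone deacetylase gene, had 25.1 and 26.4, 18.3 and 17.1 and 20.8 and 20.3 CPM (0.54 ± 0.06), and Smarce1, a subunit of the BAF remodelling complex, -0.23 ± 0.05 without a call. Hdac5 lost its call without Jmjd3 KO replicate 2 (0.50 to 0.59). Of 12 p53 and cell cycle genes, all tested, 1 was higher (Tob1, an antiproliferative gene, 0.46 ± 0.06), and Brca1 (-0.16 ± 0.05) and Ccng1 (0.20 ± 0.08) were not called; Tob1 lost its call without any 1 of the Jmjd3 KO and Tdt Control libraries (0.43 to 0.50). B9d1 was the 1 called gene of the 6 tested genes of the cilium list. That list does not hold Tekt1, which was called higher in Jmjd3 KO and is described above. None of the 3 tested Hoxb genes (of 10) and none of the 4 tested lipoxygenase genes (of 6) was called, and Hoxb2, Hoxb4 and Hoxb9 were at most at 0.511 CPM in all libraries.

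Utx KO against Tdt Control did not enter the choice of the stretch, and there 12 of the 825 tested members were called (1.45%), beside 1.72% of all genes tested. Of these 2 were higher (0.79% of all genes) and 10 lower (0.925%), and 149 members had an unadjusted p under 0.05 (18.1%, beside 16.2% of all genes). These shares are near those of all genes. By distance the calls were few everywhere, with the most, 5 of 110 (4.55%), at 20 to 30 Mb after Kdm6b and none within 1 Mb. By the authors' deposited table, 31 of 778 members were called (3.98%, against 4.21% of all genes there), and 11 of the 12 were among them. With replicate 1 or replicate 2 of Jmjd3 KO left out the count was 3 each time (0.358% and 0.359%, beside 0.538% and 0.517% of all genes). Without those of the controls it was 0 and 2 (0% and 0.238%, beside 0.0898% and 0.308%), and without those of Utx KO 0 and 3 (0% and 0.358%, beside 0.112% and 0.397%). In the omissions with a count of 0, edgeR gave 111 and 96 members an unadjusted p under 0.05 (13.2% and 11.4%, beside 12.5% and 11.1% of all genes), and DESeq2 on all 6 libraries called 36 members (4.86%, beside 4.77%). No member was called in all 6 omissions.

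Itga3, which mediates adhesion to laminin, fell in Utx KO from 114 and 110.3 to 77.1 and 73.9 CPM (-0.57 ± 0.06, adjusted p = 0.0111), and both libraries were below both of the control. Map2k3, a kinase gene upstream of p38, fell from 73.1 and 72.6 to 51.7 and 50.5 CPM (-0.51 ± 0.07, adjusted p = 0.0213), and its Jmjd3 KO libraries, at 52.3 and 59.4 CPM, were also below the control. C1ql1, a secreted C1q-like protein gene, fell from 6.62 and 6.65 to 3.72 and 4.18 CPM (-0.75 ± 0.10, adjusted p = 0.0213). In Jmjd3 KO the same gene stood at 6.35 and 6.05 CPM, just below the controls. Igfbp4, an insulin-like growth factor binding protein gene, fell from 34.0 and 35.5 to 21.7 and 25.6 CPM (-0.55 ± 0.10, adjusted p = 0.0407), and the chemokine gene Ccl7 from 14.8 and 17.9 to 11.2 and 11.7 CPM (-0.52 ± 0.10, adjusted p = 0.0463). The Jmjd3 KO libraries of both were above the control, at 49.7 and 42.4 and at 19.9 and 20.4 CPM, without a call. With no low-count filter both were called higher in Jmjd3 KO. Igfbp4 was also called higher there by DESeq2, by edgeR with the compared libraries alone and in the authors' deposited table. Epop rose in Utx KO from 19.2 and 19.1 to 25.9 and 24.3 CPM (0.39 ± 0.06, adjusted p = 0.0283), and Slc43a2, an amino acid transporter gene, from 31.6 and 33.2 to 42.2 and 38.6 CPM (0.32 ± 0.06, adjusted p = 0.0449). All adjusted p are those of edgeR's quasi-likelihood test with Benjamini-Hochberg adjustment over the 17084 genes.

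The other 5 members called in Utx KO, all lower, were Tcf7, Wscd1, Ksr1, Ngfr and Nr1d1, with log2 fold changes from -1.12 (Wscd1) to -0.28 (Tcf7). They were named after their values were seen, and Wscd1 and Ngfr average under 5 CPM. Nr1d1, which encodes the circadian repressor REV-ERB alpha, overlaps Thra on the other strand. Itga3 lost its call without Tdt Control replicate 1 or either Utx KO library (-0.60 to -0.54), Map2k3 and Ngfr without either Tdt Control or Utx KO library (-0.53 to -0.49 and -1.07 to -0.87), and Nr1d1 without any 1 library other than Tdt Control replicate 2 (-0.59 to -0.35). The remaining 8 called members lost it without any 1 of the 6 libraries, among them C1ql1 (-0.83 to -0.67), Igfbp4 (-0.68 to -0.44), Ccl7 (-0.65 to -0.37), Epop (0.34 to 0.43) and Slc43a2 (0.25 to 0.38). With the 4 libraries of this comparison alone, edgeR gave C1ql1, Igfbp4, Ccl7, Epop and Slc43a2 adjusted p of 0.0517, 0.0527, 0.0991, 0.0582 and 0.0992.

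Set against Utx KO instead of Tdt Control, Jmjd3 KO had 136 called members (16.5%; 89 higher and 47 lower), where 8.02% of all genes tested were called (5.13% higher and 2.89% lower). This comparison uses the same Jmjd3 KO libraries and is a description too. Arl4d (-1.40 ± 0.08), Slfn9 (-1.43 ± 0.08), Scpep1 (1.00 ± 0.06) and Xaf1 (2.31 ± 0.14) were also called against Utx KO, whereas Itga3 was not (-0.08 ± 0.06). Loss of Kdm6b and any difference in the linked DNA of chromosome 11 cannot be told apart in this design, since both would separate the same libraries.

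Transcript composition was read from the share of each transcript in its gene's TPM, a level scaled for transcript length and library depth. A gene was counted as switched where a share differed by at least 20 percentage points between group means and the libraries of the groups did not overlap, with the gene at 5 TPM or more in every library. Such shares are estimates by the quantifier and have no error here. In Jmjd3 KO against Tdt Control 4 of 386 members met the rule (1.04%, against 0.424% of 6369 genes), namely Myh1, Mrpl55, Taf15 and Gjc1. In Utx KO against Tdt Control 0 of 386 did (0.314% of genes). With genes from 1 TPM the counts were 12 of 555 members (2.16%, against 1.4% of genes) in Jmjd3 KO and 5 of 555 (0.901%, against 1.48%) in Utx KO, and with 10 percentage points they were 12 (3.11%, against 3.5%) and 14 (3.63%, against 3.96%).

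Mrpl55, a gene of the large mitochondrial ribosomal subunit 10.2 Mb before Kdm6b, had a gene-level log2 fold change of -0.29 without a call. Mrpl55-203 was listed at 0% and 0% of the gene's TPM in Jmjd3 KO, at 32.1% and 33.3% in the controls and at 32.0% and 37.9% in Utx KO. That is 0 and 0 estimated reads in the Jmjd3 KO pair against 514 and 501 and 374 and 445. Mrpl55-201 stood at 47.5% and 41.9% in Jmjd3 KO, 18.5% and 15.6% in the controls and 20.5% and 23.2% in Utx KO. In the annotation the second exon of Mrpl55-203 starts at 59204175 and that of Mrpl55-201 at 59204172, 3 bases earlier, and their last bases lie at 59206002 and 59206134. The Jmjd3 KO libraries and the other 4 did not overlap in either transcript.

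Gjc1 moved between 2 first exons that lie 521 bases apart at their outer ends. Gjc1-201 took 50.7% and 41.1% in Jmjd3 KO, 19.5% and 27.4% in the controls and 42.3% and 37.9% in Utx KO, and Gjc1-202 took 39.7% and 51.4%, 65.5% and 62.8% and 44.4% and 49.7%. Here the Utx KO libraries were near the Jmjd3 KO ones, and the control pair stood apart. Myh1-202 had 9.87% and 3.47% in Jmjd3 KO, 50.6% and 35.2% in the controls and 32.9% and 47.8% in Utx KO, and Myh1-203 had 53.4% and 62.2%, 26.0% and 35.1% and 45.0% and 34.0%. Myh1-203 has an additional exon at the 5′ end, and the reads of Myh1 may be shared with other myosin genes. Taf15-201 was at 33.9% and 91.1% in Jmjd3 KO against 32.7% and 30.7% in the controls and 30.8% and 33.0% in Utx KO, so that its switch rests on Jmjd3 KO replicate 2.

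A stricter view counts transcripts that were all but absent from 1 genotype. The rule, added after the data were seen, was under 1 estimated read in both libraries of a knockout and at least 20 in the 4 others, or the reverse. In Jmjd3 KO 13 of 1634 member transcripts met it (0.796%, against 0.374% of 31581 transcripts), 8 absent and 5 present, and in Utx KO 5 (0.313%, against 0.447%). Irgm2, an immunity-related GTPase gene, had 0 and 0 reads of Irgm2-202 in Jmjd3 KO, 244 and 233 in the controls and 166 and 192 in Utx KO. Its other first exon, 15.4 kb upstream, leads Irgm2-201, which had 210.4 and 189, 15.4 and 0 and 52.4 and 23.2 reads. The gene as a whole stood at 3.34 and 3.55, 4.01 and 3.92 and 4.26 and 3.84 CPM in the Jmjd3 KO, control and Utx KO pairs (-0.20 ± 0.12, not called), and it overlaps Igtp on the same strand. The other absent transcripts in Jmjd3 KO were of Hnrnph1, Mrpl55, Ulk2, Zkscan6, Nup88, Rap1gap2 and Acbd4, and those present there alone were of Hnrnph1, Lig3, Slfn9, Xylt2 and Sp2, with 21.2 to 175 reads.

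Acbd4 also differed in form. Acbd4-202, annotated as a target of nonsense-mediated decay, had 541 and 409.9 estimated reads in the Jmjd3 KO pair, 25.7 and 127 in the controls and 132 and 145 in Utx KO. The protein-coding Acbd4-203 had 0 and 0 reads in Jmjd3 KO, 204 and 118 in the controls and 78.2 and 127 in Utx KO. The reads of the first were thus highest, and those of the second absent, in both Jmjd3 KO libraries. Reads also follow the level of the gene, which was higher there. The share of Acbd4-202 in the gene's TPM was 59.99% and 35.1% in Jmjd3 KO. It was 5.17% and 31.1% in the controls and 28.8% and 23.5% in Utx KO. By share, Jmjd3 KO replicate 2 was thus close to Tdt Control replicate 2, and the control pair differed widely. Acbd4-204 took 28.1% in Jmjd3 KO replicate 2 and 0% in replicate 1. Acbd4-202 carries an exon that Acbd4-203 lacks (exon 4 of 10, chromosome 11, 103103900 to 103104020, 121 bases). As 121 leaves 1 base over after whole codons, the reading frame shifts and ends at a stop codon 58 bases into the next exon. The annotation also holds Acbd4-201, protein-coding with the same exon, whose model skips 1 base at 103104109. The exon and the next one up to the stop codon, which is in capitals, read as follows (GENCODE M21, GRCm38, plus strand).
Acbd4-202: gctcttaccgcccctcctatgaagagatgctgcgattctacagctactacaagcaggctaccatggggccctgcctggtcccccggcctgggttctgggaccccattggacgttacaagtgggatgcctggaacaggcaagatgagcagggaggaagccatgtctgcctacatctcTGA

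**Figure D5:**
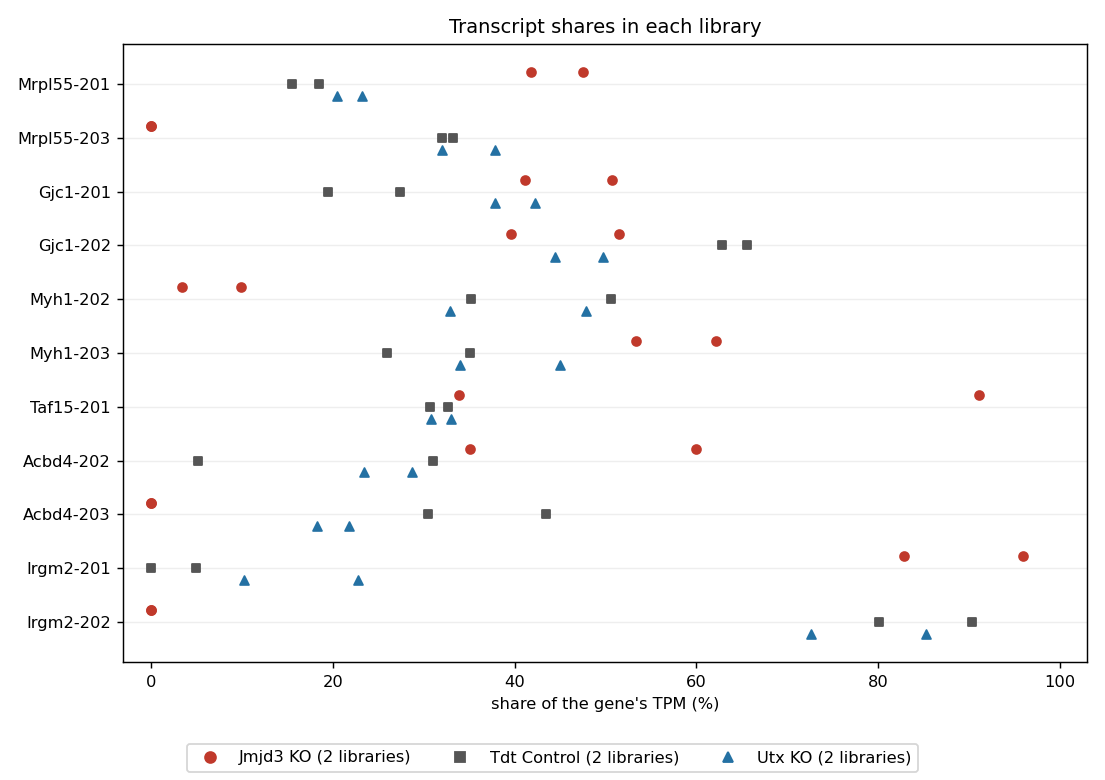
Share of each transcript in its gene's TPM in percent (horizontal axis), each point 1 library. Mrpl55-203, Acbd4-203 and Irgm2-202 are at 0 in both Jmjd3 KO libraries and between 18.2% and 90.4% in the others, and the 2 Jmjd3 KO points of Taf15-201 lie at 33.9% and 91.1%.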

How the data were processed

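RNA sequencing data of 6 libraries were used. Per the submitters' processing notes, cutadapt 2.6, Salmon 1.1.0 and DESeq2 1.28.1 were used, without a statement of each role, with the builds mm10 and GRCm38. Per the file headers, each deposited quantification holds TPM and estimated counts for every transcript; lengths were also given. In the authors' deposited comparisons are a base mean (signal), log2 fold changes with standard errors, and p-values.

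Estimated counts were summed per gene through GENCODE M21 (139864 of 140748 transcripts matched by identifier without version; at most 0.1753% of reads unmatched) and rounded. The 3 groups were fitted together in edgeR 4.0.16 (R 4.3.3) with TMM normalization, the default low-count filter, genotype as the term, and the quasi-likelihood test with Benjamini-Hochberg adjustment over 17084 genes. The common biological coefficient of variation was 0.0844, with 3 residual and 4.61 prior degrees of freedom. Log2 fold changes are given ± SE. The fit was tested on simulated data.

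The members and the gene lists were chosen with earlier results of these data known. Named were, among called members with at least 5 CPM on average and groups apart, the 12 largest changes in each direction in Jmjd3 KO and the 5 in each direction in Utx KO, the 6 nearest tested members on each side of Kdm6b, the switched genes and up to 4 members per list with the smallest p; Gm and Rik symbols were left unnamed, and 1 of the 12 largest increases is not reported here. Alternatives were DESeq2 1.42.0, other size factors, other filters, transcript length offsets, a replicate block, the compared libraries alone, a 20 Mb window, other switch floors and each library left out; upper-quartile factors, the presence rule for transcripts and its read floors were added after the data were seen.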

Additional observations from a re-analysis of the deposited data

Results flagged for a closer look

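In the edgeR fit described above, both knockouts were called in opposite directions against Tdt Control at 2 members. The knockouts differed from each other by edgeR's quasi-likelihood test at both. In either direction, 5 of the 81 members called in Jmjd3 KO were also called in Utx KO. Over all 17084 genes tested 59 (0.345%) were called in both knockouts. Opposite calls were not counted over all genes, so nothing is read from the number of such members. Since Jmjd3 KO values were in view when the region was chosen, this is a description. Ngfr, the gene of the neurotrophin receptor p75, stood at 7.91 and 6.58 CPM in the Jmjd3 KO pair, 4.47 and 4.74 in the controls and 2.19 and 2.52 in Utx KO. Its log2 fold change was 0.65 ± 0.13 in Jmjd3 KO, -0.96 ± 0.14 in Utx KO and 1.62 between Jmjd3 KO and Utx KO. The call in Jmjd3 KO ended without any 1 of the 6 libraries (0.51 to 0.78), and that in Utx KO without either Tdt Control or Utx KO library. Epop had -0.64 in Jmjd3 KO and 0.39 in Utx KO, and -1.03 between the 2. In both genes the 3 groups did not overlap in any library.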

How the results depend on the processing

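The median log2 fold change of all genes moved by at most 0.01 between scalings, and no named member changed sign where it was called. The replicate numbers did not pair the libraries (correlations of deviations from -0.0532 to -0.00813), and with a replicate block 52 members were called in Jmjd3 KO against Tdt Control (6.3%, beside 1.88% of all genes), 4 in Utx KO against Tdt Control (0.485%, beside 0.779%) and 107 in Jmjd3 KO against Utx KO (13.0%, beside 5.55%). Of the members named in the text, the block ended the calls of Chd3, BC030867, Nup88, C1qbp, Dhx33, Mis12, Mrm3, Slfn1, Acsf2, Ngfr and Grn in Jmjd3 KO and of Igfbp4, Ccl7, Epop, Slc43a2, Tcf7, Wscd1, Ksr1 and Nr1d1 in Utx KO. In the same order, no low-count filter gave 159, 67 and 218 calls (14.9%, 6.28% and 20.4%, beside 6.01%, 4.49% and 9.16% of all genes), and transcript length offsets 51, 5 and 89 (6.18%, 0.606% and 10.8%, beside 1.94%, 0.767% and 4.64%). In Utx KO against Tdt Control DESeq2 called 36 (4.86%, beside 4.77%) and the 4 libraries alone 3 (0.37%, beside 0.716%). Within 20 Mb of Kdm6b 6 members were called in Utx KO against Tdt Control (1.2%) and 89 in Jmjd3 KO against Utx KO (17.8%). Leaving out 1 library gave 23 to 69, 0 to 3 and 43 to 140 calls. Switch counts were 12 at 10 percentage points, 12 from 1 TPM and 0 from 20 TPM in Jmjd3 KO, with 4 to 5 without 1 library, and 14, 5 and 0 in Utx KO, with 1 to 4. The presence rule gave 20 and 8 member transcripts in Jmjd3 KO, and 9 and 4 in Utx KO, at 10 and 50 reads. These were 1.05% and 0.597% of member transcripts in Jmjd3 KO, beside 0.514% and 0.207% of all transcripts, and 0.48% and 0.308% in Utx KO, beside 0.59% and 0.257%. The causes were not tested. Of 1180 values of named members under alternatives, 1044 stayed as they were, 91 lost a call, 7 gained one and 38 moved by over 1 SE. With 2 libraries a group, small changes and members under 1 CPM are beyond the reach of these data.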

Other observations

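A few member transcripts set other groups apart, and these were picked after the values were seen. Cluh-202, of a gene for mitochondrial RNA binding 5.25 Mb after Kdm6b, had 123 and 105 estimated reads in Utx KO and 0 in the 4 other libraries. Usp43-201 had 0 in both Utx KO libraries, 145 and 194 in Jmjd3 KO and 110.0 and 75.4 in Tdt Control. Tom1l1-208 was listed at 0 in both Tdt Control libraries, while its share of the gene's TPM was 22.9% and 22.1% in Jmjd3 KO and 19.8% and 23.3% in Utx KO, where it rests on 36.7 to 50.9 estimated reads a library.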
